A study of Mus musculus with 2 samples.

Results

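The cells described here are 1729 islet cells of Isl1-deleted mice that carried transcripts of the Iroquois genes Irx1 and Irx2, which mark glucagon-producing alpha cells in the mouse islet, but almost none of the glucagon gene Gcg itself. They were 1729 of 12450 cells in the series and 21.0% (20.1 to 21.9) of the 8231 cells of their library. A cell was included when it had at least 2 UMIs (molecular barcodes that count each captured RNA once) of Irx1 and Irx2 together, at most 1 of Nkx6-1 (a beta cell factor) and 0 of Hhex (a delta cell factor), with Gcg and the insulin genes Ins1 and Ins2 each under 1% of its UMIs. The cell filter asked for 1000 UMIs and 500 genes or more and no more than 15% of UMIs from mitochondrial genes. The cells were thus chosen by the measured UMIs of these 7 genes, whose values are given only as a description. No lineage was traced, and 1142 of the 1729 cells held at least 1 Gcg UMI, so they are not cells without glucagon transcripts and are called glucagon-low Irx cells.

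The series holds 2 single-cell RNA libraries of tdTomato-sorted pancreatic islet cells from mice aged 1 month, and 3 animals of each genotype were pooled into each library. Control animals were Neurod1 Cre/+; Isl1f/+ and Isl1CKO animals Neurod1 Cre/+; Isl1f/f, with a tdTomato reporter in both. The controls thus also carried the Cre, active in endocrine cells, and had a single floxed allele of Isl1 (1 of its 2 copies). The comparison cells were 1391 control cells with at least 2 Irx UMIs and Gcg at 5% of UMIs or more (control glucagon cells), and, within the Isl1CKO library, the 6502 other cells and the 5082 cells with no Irx UMI and Gcg under 1% (Irx-negative Isl1CKO cells). With 1 library per genotype there is no replicate and no test, and every 95% interval covers counting error only. Differences of genotype, library and pool of animals cannot be told apart.

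The islet alpha cell makes glucagon, the hormone that raises blood glucose by acting on the liver. The paired-box factor Pax6 binds the Gcg promoter. Isl1 is a LIM-homeodomain factor found in all islet endocrine cells, and it too is known to act on Gcg.

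Levels are in CPM, the usual library-size-normalised UMI measure over the summed cells after TMM scaling, which sets the middle of the 2 cell sets' gene ratios level. A ratio is given as log2, and a gene counts as higher or lower when it differs by 2-fold or more and reaches 10 CPM on 1 side. The control library held 48685758 UMIs and the Isl1CKO library 86086781. Glucagon-low Irx cells had a median of 9279 UMIs, 2915 genes and 1.09% mitochondrial UMIs, and control glucagon cells 10552, 2561 and 0.591%. Of the barcodes passing the filter, 8 occurred in both libraries, and 1 of these was a glucagon-low Irx cell. Scrublet, a doublet caller, marked 0 Isl1CKO cells at its own threshold and so did not work there. At the control threshold it marked 3.07% of glucagon-low Irx cells and 9.06% of control glucagon cells. The labels call the control pool males and the Isl1CKO pool females and males, yet both libraries held cells with Xist, the female X-inactivation RNA, and cells with Y-linked transcripts. Of the glucagon-low Irx cells 1138 had Xist only (female cells) and 385 Y-linked transcripts only (male cells), against 406 and 541 of the control glucagon cells, so ratios were also taken within the female and the male cells.

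Isl1 (ENSMUSG00000042258.13, GRCm38 chromosome 13, 116298281 to 116309689, minus strand) stood at 403 CPM (394 to 412) in glucagon-low Irx cells and 380 CPM (370 to 390) in control glucagon cells. The log2 ratio was 0.09 (0.03 to 0.14). These are counts of transcript 3′ ends, and which exons are floxed is not given in the sources used here, so the value does not check the deletion and the genotype rests on the label. tdTomato was at 4398 CPM in glucagon-low Irx cells and at 1224 CPM in control glucagon cells, and at 4686 CPM in Irx-negative Isl1CKO cells.

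Promoters of 3 genes are shown because the results turn on their transcripts: Gcg, a gene of the rule itself, Pou3f4 (also Brn4), an alpha cell POU factor that was lower than in control, and Slc38a5, an alpha cell glutamine transporter that was higher. Each is the 250 bases before the gene's RefSeq start, GRCm38.p6, 5′ to 3′ on the gene's strand. Capitals mark TAAT on either strand (TAAT or ATTA), the core letters of homeodomain sites. Gcg lies at chr2:62483654-62483903 on the minus strand, Pou3f4 at chrX:110814129-110814378 on the plus strand and Slc38a5 at chrX:8271131-8271380 on the plus strand.
Gcg: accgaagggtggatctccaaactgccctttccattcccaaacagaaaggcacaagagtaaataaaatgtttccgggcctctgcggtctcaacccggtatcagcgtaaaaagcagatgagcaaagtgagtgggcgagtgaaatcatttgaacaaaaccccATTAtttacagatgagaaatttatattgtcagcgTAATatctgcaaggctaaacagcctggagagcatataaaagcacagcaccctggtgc
Pou3f4: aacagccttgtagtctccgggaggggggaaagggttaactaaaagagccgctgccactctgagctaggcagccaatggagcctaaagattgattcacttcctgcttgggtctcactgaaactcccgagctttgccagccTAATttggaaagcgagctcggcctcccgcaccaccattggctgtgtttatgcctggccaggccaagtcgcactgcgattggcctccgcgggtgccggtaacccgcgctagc
Slc38a5: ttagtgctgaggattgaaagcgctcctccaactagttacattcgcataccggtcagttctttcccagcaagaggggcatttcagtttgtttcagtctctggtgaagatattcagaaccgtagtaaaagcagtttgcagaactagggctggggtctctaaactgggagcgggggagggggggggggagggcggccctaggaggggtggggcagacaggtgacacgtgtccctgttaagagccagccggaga
The Gcg promoter holds 2 matches, ATTA from 91 to 88 and TAAT from 57 to 54 bases before the start. The Pou3f4 promoter holds 1, from 111 to 108 bases before it, and the Slc38a5 window has 0. The gene position given for Slc38a5 further on is from GENCODE and begins earlier than the RefSeq start. Nearly all of the Slc38a5 window lies inside that position, so it is not sequence before the GENCODE start. Over all RefSeq promoters of this length in the table, 54.9% (18041 of 32851) hold at least 1, so a match is common and describes letters only. GC content was 44.8% for Gcg, 58% for Pou3f4 and 55.2% for Slc38a5. Irx1 and Abcc8 are named without a promoter.

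Cells with Irx1 and Irx2 were present in both libraries, with much lower Gcg in Isl1CKO. At least 2 Irx UMIs were found in 1460 of 4219 control cells (34.6%) and in 2375 of 8231 Isl1CKO cells (28.9%). Of the control Irx cells 95.3% had Gcg at 5% of UMIs or more, and of the Isl1CKO Irx cells 0.337% (8 cells) did. Gcg was under 1% in 94.8% of the Isl1CKO Irx cells (2251 cells) and under 0.1% in 71.4% (1696 cells). The corresponding control shares were 3.01% and 1.44%. The 2 distributions overlapped between 0.03% and 10% of UMIs, where few control cells lay.

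**Figure D1:**
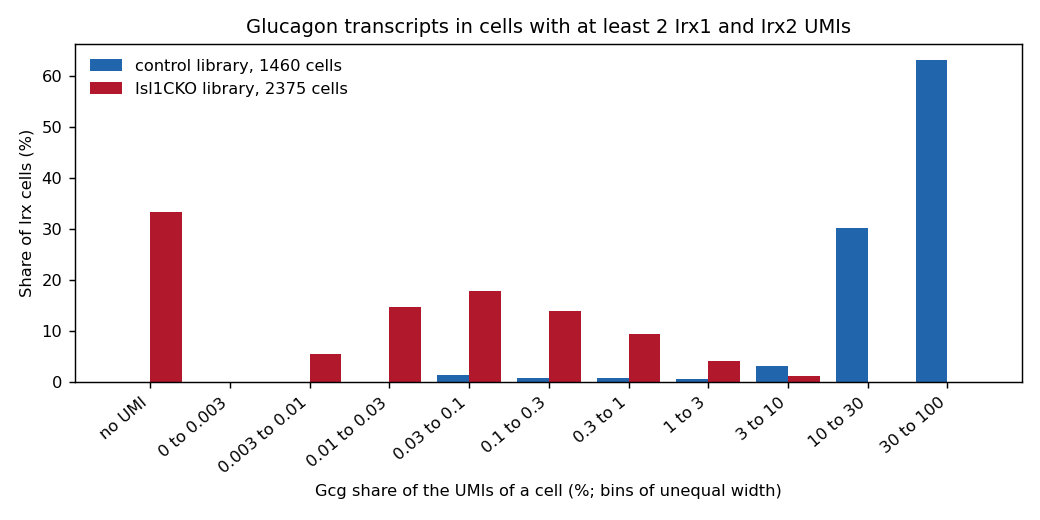
Share of Irx cells (at least 2 UMIs of Irx1 and Irx2; y axis, percent of the library's Irx cells) in each bin of Gcg as a percent of the cell's UMIs (x axis), for 1460 control and 2375 Isl1CKO cells. Of the control cells 63.1% lie between 30 and 100%, and of the Isl1CKO cells 33.4% have no Gcg UMI and none lies above 10%.

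From the 2375 Isl1CKO Irx cells the limit on Nkx6-1 left 1920, that on Hhex 1845, that on insulin 1834 and that on Gcg 1729. The 105 cells lost at the last step, just outside the Gcg limit, had a median Gcg of 1.67%. Just inside it, 83 cells (4.80%) had between 0.5% and the highest value of 0.979%. The median was 0.0205%, and 587 cells (33.95%) had no Gcg UMI. Control glucagon cells had a median of 34.5% (5.02 to 67.1). On the Irx side of the rule, 428 cells (24.8%) had exactly 2 Irx UMIs, and the median was 4 (2 to 52), against 3 (2 to 19) in control glucagon cells. Both Irx genes were seen in 1305 cells (75.5%), Irx1 alone in 153 and Irx2 alone in 271. One Nkx6-1 UMI, the most allowed, was found in 592 cells (34.2%).

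Low Gcg counts were set against free RNA. In barcodes with under 100 UMIs, which hold RNA from the suspension, Gcg made up 0.0891% of UMIs in Isl1CKO and 16.7% in control. At least 1 Gcg UMI was found in 66.1% of glucagon-low Irx cells and in 13.6% of Irx-negative Isl1CKO cells, and in 50.6% and 6.46% after each cell was thinned to 3000 UMIs. Their median depths were 9279 and 7603.5 UMIs. Summed, Gcg was at 1062 CPM in glucagon-low Irx cells, 57.5 CPM in Irx-negative Isl1CKO cells and 414060 CPM in control glucagon cells. All 3 sets were chosen in part by Gcg, so these levels are a description.

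Only 33 control cells (0.782%) passed the same limits as the glucagon-low Irx cells. They differed from them: pancreatic polypeptide, Ppy, stood at 376050 CPM in them, against 1.19 CPM in glucagon-low Irx cells. Their Slc38a5 was at 130 CPM and their Ttr at 9059 CPM. In control the limits thus admitted cells rich in Ppy, so passing them does not by itself show alpha cell identity. These 33 cells were too few and too different to serve as a control, and control glucagon cells were used.

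Of the alpha cell transcription factors given here, Pou3f4 was lower than in control glucagon cells and 5 others were within 2-fold of it. Pou3f4, whose promoter is shown above, was at 2.98 CPM against 43.7 CPM in control glucagon cells, a log2 ratio of -3.85 (-4.28 to -3.49). Irx-negative Isl1CKO cells had 1.72 CPM. Smarca1 (log2 ratio -0.54), Meis2 (-0.55), Gata6 (0.30), Etv1 (0.35) and Peg3 (0.15) were the 5 within 2-fold. Irx1 (chromosome 13, 71957921 to 71963723) and Irx2 (chromosome 13, 72628820 to 72634198), which chose both sets of cells, were at 232 and 224 CPM against 206 and 191 CPM.

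The general endocrine factors were near their control level. Over all 8358 genes measured, 6.74% were higher and 5.9% lower than in control glucagon cells, and the median was 0.08. Of 16 general factors measured, 1 was higher and 1 lower, the median being 0.06, which became -0.26 with hormone genes left out of the scaling. Pax6, needed for all islet endocrine cells, was at 279 against 166 CPM (log2 ratio 0.75). Neurod1, whose gene drives the Cre, was at 341 against 288 CPM (0.24), and Nkx2-2 had a ratio of 0.55. The 2 called genes were Nr4a2, an orphan nuclear receptor (1.73), and Mlxipl, the glucose-sensing factor ChREBP (-1.55), whose call was lost with doublets left out or with control cells without another hormone.

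**Figure D2:**
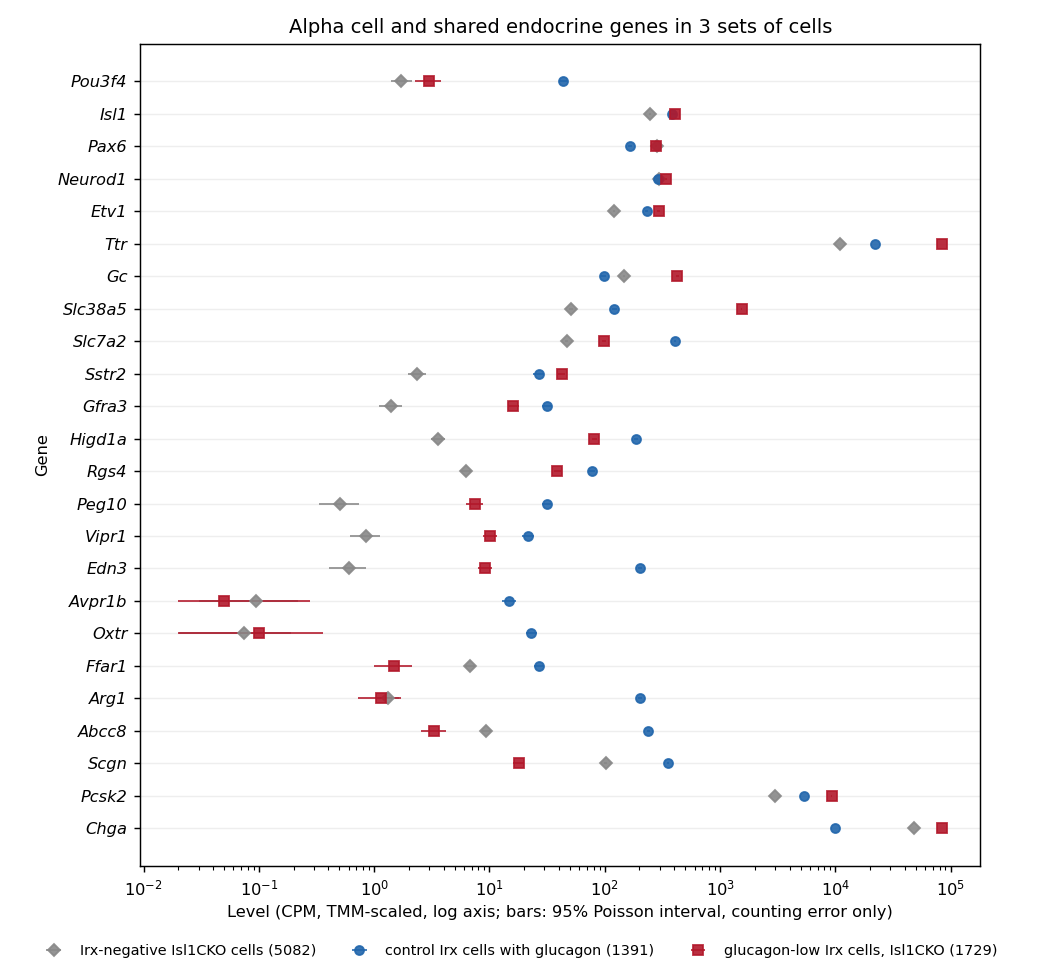
Level in CPM (log axis) of 24 alpha cell and related genes in glucagon-low Irx cells, control glucagon cells and Irx-negative Isl1CKO cells, with bars for the 95% Poisson interval (counting error only, cut at 0.02 CPM). Abcc8 lies at 3.28 CPM in glucagon-low Irx cells and 238 CPM in control glucagon cells, whereas Slc38a5 and Ttr lie above control.

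Alpha cell effector genes split in both directions. Of 23 listed genes 19 were measured, 4 of them higher and 8 lower than in control glucagon cells, with a median log2 ratio of -0.68 (-1.01 in female and -0.48 in male cells). The higher ones were Slc38a5, Gc, Ttr and Wfdc15b. The lower ones were Avpr1b, Ffar1, Dpp4, Dpp10, Peg10, Slc7a2, Higd1a and Rgs4.

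Ttr, the thyroid hormone and retinol carrier transthyretin, was at 84457 CPM in glucagon-low Irx cells and 22152 CPM in control glucagon cells, a 3.81-fold difference and a log2 ratio of 1.93 (1.93 to 1.94). It was 1.34 in female and 2.55 in male cells. Irx-negative Isl1CKO cells had 10999 CPM. In near-empty barcodes Ttr made up 3.77% of UMIs in Isl1CKO and 1.09% in control, and how much of it lay free of cells was not subtracted.

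Slc38a5 (ENSMUSG00000031170.14, GRCm38 chromosome X, 8271133 to 8280179, plus strand) carries glutamine into alpha cells and is known to be induced there when glucagon signalling is interrupted. It was at 1545 CPM (1528 to 1562) in glucagon-low Irx cells and 121 CPM (115 to 126) in control glucagon cells, 12.8-fold higher, with a log2 ratio of 3.68 (3.61 to 3.75). Irx-negative Isl1CKO cells had 50.9 CPM. A UMI of it was found in 64.1%, 48.8% and 17.7% of these 3 sets, or 44.3%, 19.2% and 8.81% after thinning, and in 0 of 22 non-endocrine Isl1CKO cells (median 3272 UMIs) and 0 of 23 control ones (4036). The ratio differed between the sexes, 1.38 in female and 4.75 in male cells, and was above 2-fold in both.

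Gc, the vitamin D-binding protein that alpha cells also make, was at 427 against 97.8 CPM, a log2 ratio of 2.13 (2.04 to 2.21). Sstr2, the somatostatin receptor of alpha cells, was at 42.3 against 26.6 CPM (0.67, not called), and at 2.34 CPM in Irx-negative Isl1CKO cells. Wfdc15b was at 23.9 against 6.94 CPM (1.77), but this came from female cells: it stood at 39.8 CPM in female and 0.164 CPM in male glucagon-low Irx cells. Of the marker genes given for these cells outside the rule, Ttr and Sstr2 were thus found in both sexes and Wfdc15b in female cells.

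Among the lower effector genes, Higd1a, a mitochondrial protein induced by hypoxia, was at 81.3 against 185 CPM (log2 ratio -1.19), and at 3.59 CPM in Irx-negative Isl1CKO cells. Slc7a2, a carrier of arginine and other cationic amino acids, was at 98.3 against 406 CPM (-2.05). Dpp4, a peptidase, was at 5.76 against 80.1 CPM (-3.79). These 3 stayed above 5 CPM. The vasopressin receptor Avpr1b gave 1 UMI, against 14.9 CPM in control glucagon cells. Higd1a and Rgs4 were under 2-fold in male cells and without TMM scaling (Higd1a -0.82 and -0.78, Rgs4 -0.48 and -0.59).

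The same cells were then compared within their own library, where library and genotype are shared. A total of 34 genes were at 50 CPM or more and at least 4-fold higher in control glucagon cells than in 1852 Irx-negative control cells (0.41% of 8295 genes). Of these 34, 24 (70.6%) were at least 2-fold higher in glucagon-low Irx cells than in Irx-negative Isl1CKO cells, against 2.47% of all 8337 genes, of which 5.4% were lower. The CPM minimum for a call was applied to all genes but not to the 34 here, so these shares follow different rules. The 24 include Tmsb15l (9.48 and 1.82 CPM), Edn3 (9.18 and 0.599 CPM) and Galnt13 (8.74 and 0.917 CPM). These were under that minimum in both sets of Isl1CKO cells, and also passed at 4-fold. In both sexes 19 (55.9%) passed, and 14 passed at 4-fold. None of the 34 was at least 2-fold lower than in Irx-negative Isl1CKO cells. By their level, 24 of the 34 were at least 2-fold lower than in control glucagon cells and 3 higher.

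These 2 readings overlapped. A set of 17 genes stood apart from the Irx-negative cells and was still at least 2-fold lower than in control. They include Higd1a (log2 ratio 4.49 over Irx-negative Isl1CKO cells), Edn3 (3.90) and Galnt13 (3.23). Of these, Edn3 and Galnt13 were under the CPM minimum for a call in both sets of Isl1CKO cells. Another 7 were set apart at a level within 2-fold of control or higher: Slc38a5 (4.92), Ttr (2.94), Upk3a (2.43), Grb10 (2.31), Pdk4 (2.30), Nxph1 (2.18) and Cald1 (1.67). In a further 7 both were lost: Pappa2, Vwde, Slc30a8, Cit, Slc7a8 and Ctxn2, among them, were lower than in control and not 2-fold above Irx-negative Isl1CKO cells. Slc30a8, the zinc carrier of secretory granules, lay on that line at 1.00.

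**Figure D3:**
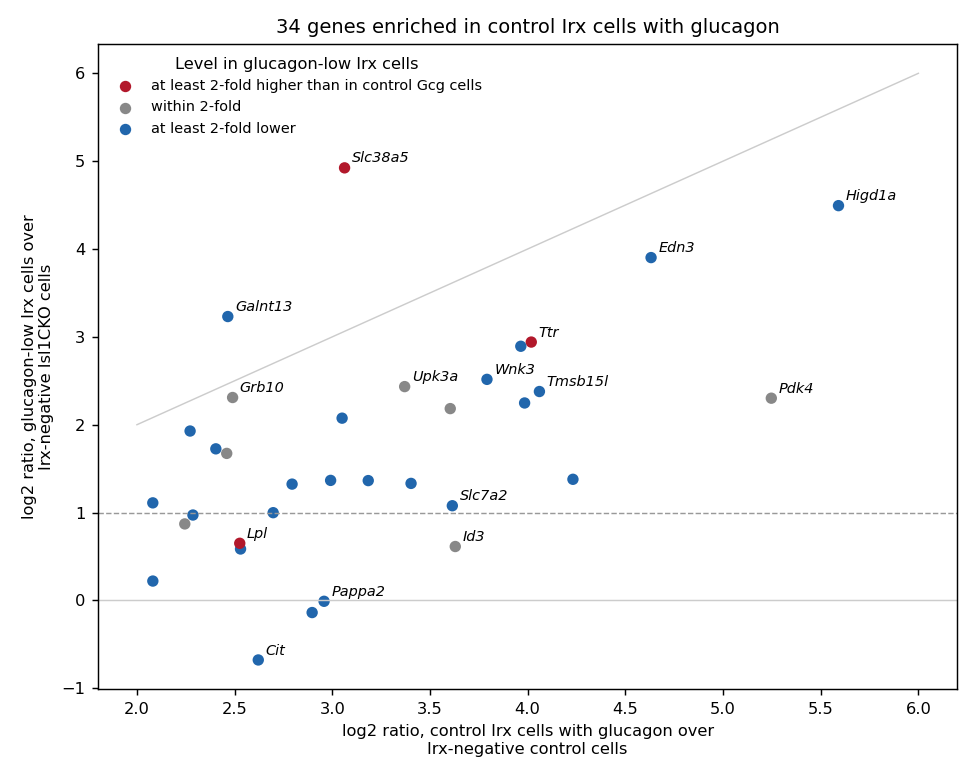
Each point is 1 of 34 genes enriched in control glucagon cells: x, log2 ratio of control glucagon over Irx-negative control cells; y, log2 ratio of glucagon-low Irx over Irx-negative Isl1CKO cells; colour, level relative to control glucagon cells. The dashed line at 1 is 2-fold, and 24 of the 34 points lie at or above it, most of them under the grey diagonal of equal ratios.

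Edn3, the peptide endothelin 3, shows the difference between the 2 readings. It was at 9.18 CPM in glucagon-low Irx cells and 202 CPM in control glucagon cells, a log2 ratio of -4.45 (-4.68 to -4.25). Irx-negative Isl1CKO cells had 0.599 CPM, so Edn3 was low and yet set these cells apart by its ratio. Both Isl1CKO levels were under the CPM minimum for a call.

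Against all other 6502 Isl1CKO cells, 120 of 8269 genes (1.45%) were higher in glucagon-low Irx cells and 342 (4.14%) lower. The 12 highest that also passed in each sex were led by Slc38a5 (log2 ratio 2.73), Agt (2.38), Higd1a (2.34), Eef1a2 (2.17) and Ttr (1.91). Agt, angiotensinogen, was at 1091 CPM, against 210 CPM in the other Isl1CKO cells and 27.99 CPM in control glucagon cells. The lowest were the hormones Ppy (-6.72), Sst (-6.71), Pyy (-6.16) and Iapp (-5.13), then Dlk1 (-5.11) and the prostaglandin receptor Ptger3 (-4.83). The rule left out cells with Nkx6-1, Hhex or insulin, so lower beta and delta cell genes are no finding here.

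Other islet hormones were also far below control glucagon cells. Ppy was at 1.19 CPM against 25755, Pyy (peptide YY) at 2.63 CPM against 25956, and Sst (somatostatin) at 0.794 CPM against 9652. Part of the control signal was shared: Pyy was at 1% of UMIs or more in 475 control glucagon cells, Ppy in 304 and Sst in 122, and near-empty control barcodes held 6.88% Ppy, 6.55% Pyy and 2.73% Sst. In near-empty Isl1CKO barcodes these were 0.00675%, 0.0145% and 0.00534%. Against the 869 control glucagon cells with none of them, nor insulin, at 1%, the log2 ratios were -10.03 for Ppy, -10.27 for Pyy and -8.27 for Sst, in place of -14.34, -13.24 and -13.48. Of 3 delta cell genes measured 0 were higher and 2 lower, Sst and the retinol carrier Rbp4 (-1.82, but -0.44 in male cells). The list median was -1.82, and -1.37 against the 869 cells. The limits on Hhex, Nkx6-1 and insulin did not apply to control glucagon cells. The compared sets were thus not chosen alike for delta and beta cell genes. Ghrl, ghrelin, went the other way, at 44.8 CPM against 2.02 CPM (4.42), with 147 CPM in Irx-negative Isl1CKO cells.

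Of 10 beta cell genes measured 6 were lower, 1 (Prlr) was higher and the median was -1.22, or -0.38 against the control glucagon cells with no other hormone. Iapp, the beta cell peptide amylin, was at 431 CPM against 5251 CPM (log2 ratio -3.61). Against the 869 control glucagon cells with no other hormone its ratio was 0.14 and that of Pdx1 0.19, in place of -2.31, so these 2 calls did not hold without cells carrying another hormone. Against the same cells the Abcc8 log2 ratio was -6.05, close to its value over all control glucagon cells. Abcc8 (ENSMUSG00000040136.9, GRCm38 chromosome 7, 46104523 to 46180033, minus strand) encodes SUR1, the sulfonylurea receptor subunit of the ATP-sensitive potassium channel, which both alpha and beta cells use. It was at 3.28 CPM (2.53 to 4.17) in glucagon-low Irx cells and 238 CPM (230 to 247) in control glucagon cells, a 71.7-fold difference and a log2 ratio of -6.16 (-6.56 to -5.83). Female cells gave -8.48 and male cells -4.66. An Abcc8 UMI was found in 2.54% of glucagon-low Irx cells and 82.0% of control glucagon cells, or 1.05% and 43.2% after thinning. Irx-negative Isl1CKO cells were also low, at 9.39 CPM, so the low level was common to the library.

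Genes of hormone processing and storage differed in both directions. Of 16 measured, 3 were higher and 3 lower, the median being 0.47. Chga, chromogranin A, the main granule matrix protein, was at 83814 CPM against 9919 CPM, 8.45-fold higher (log2 ratio 3.08). Chga also made up 5.88% of UMIs in near-empty Isl1CKO barcodes and 0.862% in near-empty control barcodes, which was not subtracted. Chgb (1.38) and Vgf (3.78) were also higher, whereas Scg2 (-1.40), Resp18 (-1.20) and Slc30a8 (-1.35) were lower. Pcsk2, the convertase that cuts proglucagon to glucagon, was at 9268 against 5337 CPM (0.80, not called) and at 2998 CPM in Irx-negative Isl1CKO cells. Its level was thus no lower than in control in cells with hardly any Gcg. Without TMM scaling Scg2 (-0.99), Resp18 (-0.79) and Slc30a8 (-0.94) were under 2-fold, and in male cells Chgb (0.87) and Slc30a8 (-0.67).

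Of the genes of vesicle release, 0 of 19 were higher and 4 lower: Cadps (log2 ratio -2.60), Rab3b (-2.24), Rab3a (-1.09) and Rph3al (-1.09). The list's median was -0.26, and 0.14 without TMM scaling, so its sign depended on the scaling. Rab3a (-0.68) and Rph3al (-0.68) were then under 2-fold, as they were in male cells (-0.84 and -0.16). Of 15 ion channel genes 0 were higher and 2 lower, Abcc8 (-6.16) and the sodium channel Scn9a (-3.65), with a median of -0.13 that became 0.42 without scaling. The calcium channel genes Cacna1d (0.55) and Cacna1a (-0.96) were within 2-fold.

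Of 14 receptor genes measured 6 were lower and 2 higher, and the median was -0.64. The oxytocin receptor Oxtr gave 2 UMIs against 23.0 CPM in control glucagon cells. The fatty acid receptors Ffar1 (1.49 against 26.8 CPM, log2 ratio -4.13) and Ffar2 (-1.04), the glutamate receptor Gria2 (-1.88), Avpr1b (-7.24) and Vipr1 (-1.10) were lower too. Adrb1, the beta-1 adrenergic receptor, was at 25.3 against 5.28 CPM (2.24), and Igf1r had a ratio of 1.36. In male cells Ffar2 (-0.08) and Igf1r (0.57) were under 2-fold, and without TMM scaling Ffar2 (-0.63) and Vipr1 (-0.69), which also missed it within each sex (-0.95 and -0.99).

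Amino acid genes, which in alpha cells tie glucagon to amino acid supply, went both ways, with 5 of 15 higher and 5 lower. Beside Slc38a5, the carriers Slc38a4 (1.69), Slc1a5 (1.62) and Slc6a6 (1.34) were higher, and Slc7a2 (-2.05), Slc7a8 (-1.64), Slc3a2 (-1.35) and the creatine enzyme Gatm (-2.16) were lower. A pair of arginine enzymes differed: Arg1, which splits arginine, was at 1.14 against 201 CPM (-7.40), and Ass1, which makes it, at 76.7 against 3.54 CPM (4.41). Arg1 was as low in Irx-negative Isl1CKO cells, at 1.31 CPM. The median of the list was 0.53 over all cells and -0.39 in male cells, where Slc38a4 (0.82), Slc1a5 (0.49) and Slc6a6 (0.25) were under 2-fold. Slc3a2 was under it without TMM scaling (-0.94).

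Several genes of the gut hormone and neuropeptide list were higher than in control glucagon cells. Of 25 listed genes 7 were measured, 4 of them higher and 2 lower, and the median was 1.48. Against Irx-negative Isl1CKO cells 1 of 11 measured was higher and 6 were lower, with a median of -1.13. Cartpt, a neuropeptide, was at 119 CPM against 0.868 CPM (log2 ratio 6.99), Sct, secretin, at 204 against 7.30 CPM (4.79), and Fev, a factor of serotonin-type and endocrine precursor cells, at 153 against 54.8 CPM (1.48). The fourth was Ghrl. A Cartpt UMI was found in 27.2% of glucagon-low Irx cells and 0.719% of control glucagon cells. Irx-negative Isl1CKO cells had 166 CPM of Cartpt and 210 CPM of Fev, no lower than glucagon-low Irx cells, but 60.3 CPM of Sct. The 2 lower genes were Pyy and Ddc (-1.60), the latter under 2-fold in male cells (-0.75).

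Neurog3, the factor that starts endocrine differentiation, was not higher: it stood at 0.447 CPM against 11.4 CPM in control glucagon cells (log2 ratio -4.53). Of 13 endocrine progenitor genes 4 were higher, Cdkn1a (3.30), Btg2 (2.40), Fev (1.48) and Chgb (1.38), and 2 lower, Neurog3 and Cbfa2t3 (-2.84), with a median of 0.16. The lists overlap: Chgb is also counted with the granule genes, Fev with the gut hormone genes and Cdkn1a with the cell cycle genes. Of 15 pancreatic progenitor and ductal genes 2 were higher, Cd24a (2.34) and Dcdc2a (1.46), and 2 lower, Ehf (-4.17) and Notch1 (-1.56), with a median of 0.30. With hormone genes left out of the scaling these medians were -0.17 and -0.03. Of 11 neuronal growth genes 0 were higher and 4 lower (Gap43, Ptn, Mest and Robo2), with a median of -0.74. Of 7 cell cycle genes 3 were higher, Cdkn1a, Ccnd2 (1.07) and Pcna (1.01), and Ccnd1 was lower (-2.43). With hormone genes left out, Ccnd2 (0.74) and Pcna (0.69) were under 2-fold, and in male cells Btg2 (0.74), Pcna (0.94) and Notch1 (-0.98).

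Stress and nutrient response genes had the most calls in 1 direction of the lists: 14 of 23 were higher and 0 lower, and the median was 1.92. Klf15, a factor of fasting and glucocorticoid response, was at 90.0 against 2.02 CPM (log2 ratio 5.42). Cidea, a lipid droplet protein, was at 305 against 4.77 CPM (5.98), Ddit4 at 246 against 15.04 CPM (4.03) and Txnip at 1239 against 137 CPM (3.17). Against Irx-negative Isl1CKO cells 4 of 23 were higher, and the median was 0.16. The median against control was 2.85 in female and 0.65 in male cells, where Ddit4 (0.34) was under 2-fold. Of 10 immediate early genes 4 were higher (Egr1, Junb, Zfp36 and Fos) and Jun was lower, with medians of 0.70 over all, 1.29 in female and -0.77 in male cells. In male cells Egr1 (-0.47), Junb (-0.40) and Fos (-1.76) were below control and Zfp36 was at 0.11. Actinomycin D, which blocks transcription, was present during dissociation of both libraries.

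**Figure D4:**
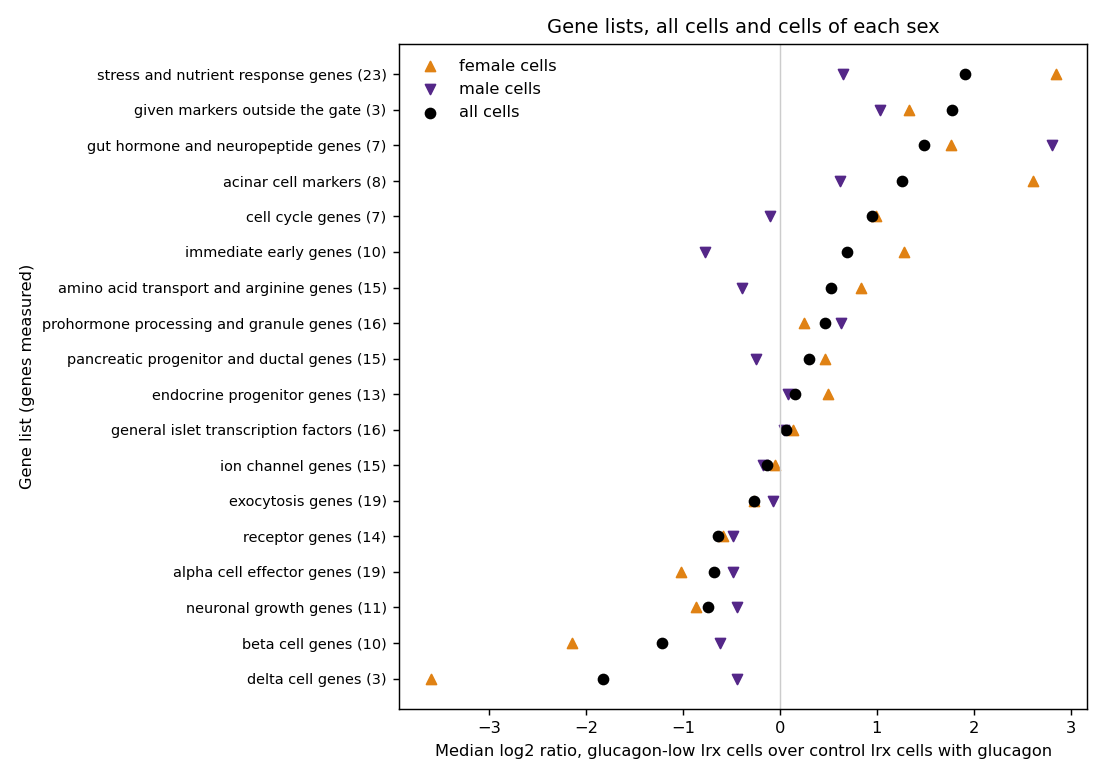
Median log2 ratio of glucagon-low Irx over control glucagon cells for the gene lists shown (y axis), over all cells, in female cells and in male cells. The lists of gate genes, sex-linked genes, other islet hormones and alpha cell transcription factors, and lists with few genes measured, are left out. Stress and nutrient response genes have a median of 1.92 over all cells, 2.85 in female and 0.65 in male cells, and immediate early genes change sign between the sexes (1.29 and -0.77).

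Markers of other cell types were mostly low. Summed over 10 acinar markers, glucagon-low Irx cells had 310 CPM, control glucagon cells 149 CPM and Irx-negative Isl1CKO cells 2931 CPM, and 5 of 8 measured were higher than control and Cela1 lower. Acinar Ctrb1 was also 0.227% of near-empty Isl1CKO and 0.00491% of near-empty control barcodes. The 7 macrophage markers summed to 74.8 and 168 CPM, nearly all C1qa (68.3 and 167 CPM), with 1 of 7 at 0 in glucagon-low Irx cells. The 5 ductal markers summed to 77.0 and 159 CPM, and stromal markers to 0.298 and 9.11 CPM, with 4 of 7 at 0. Endothelial markers summed to 7 and 0.434 CPM, Schwann cell markers to 5.96 and 11.3 CPM, B and T cell markers to 2.68 and 5.86 CPM and red cell markers to 0.0497 and 0.0723 CPM. Their part in the results was not tested.

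More genes were past 2-fold between the sexes among glucagon-low Irx cells than among control glucagon cells. Between female and male glucagon-low Irx cells, 7.69% of 8405 genes were higher in female cells and 8.03% lower. The same comparison gave 0.259% and 0.37% in control glucagon cells and 4.54% and 4.77% in Irx-negative Isl1CKO cells. Of 1169 genes past 2-fold in glucagon-low Irx cells and measured in Irx-negative Isl1CKO cells, 486 were past 2-fold the same way there. Female and male cells came from different animals, so sex and animal cannot be told apart, and the difference from control was not tested. Depth differed as well. Glucagon-low Irx cells held 10599089 UMIs over 1138 female cells and 5758344 over 385 male cells. Control glucagon cells held 4584842 UMIs over 406 female cells and 6721306 over 541 male cells. No single sex was assigned to 11.9% of glucagon-low Irx cells and 31.9% of control glucagon cells. The part of depth and of sex assignment was not tested.

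Slc38a5 was the lowest in female relative to male glucagon-low Irx cells among the ranked genes, at 245 and 3974 CPM (log2 ratio -4.02). In control glucagon cells the ratio was -0.64, and in Irx-negative Isl1CKO cells -2.40. Rbp4 was at 232 and 1812 CPM (-2.96), and Ffar2 (-3.05) and Cryba2 (-2.46) were lower in female cells as well. Of 16 alpha cell effector genes 3 were higher and 8 lower in female cells, with a median of -0.98. In the other direction stood Ddit4, at 403 CPM in female and 20.5 CPM in male cells (4.29), Mt1 (3.88), Klf15 (3.77), Egr1 (3.49) and Fos (3.41). Of 13 immediate early genes 10 were higher in female glucagon-low Irx cells, with a median of 2.16, against 0.03 in control glucagon cells. For the 23 stress and nutrient genes, 13 were higher and the medians were 1.66 and 0.00. The acinar markers had a median of 2.02 in glucagon-low Irx cells, so they moved with sex too, and tdTomato was at 6676 CPM in female and 958 CPM in male cells.

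**Figure D5:**
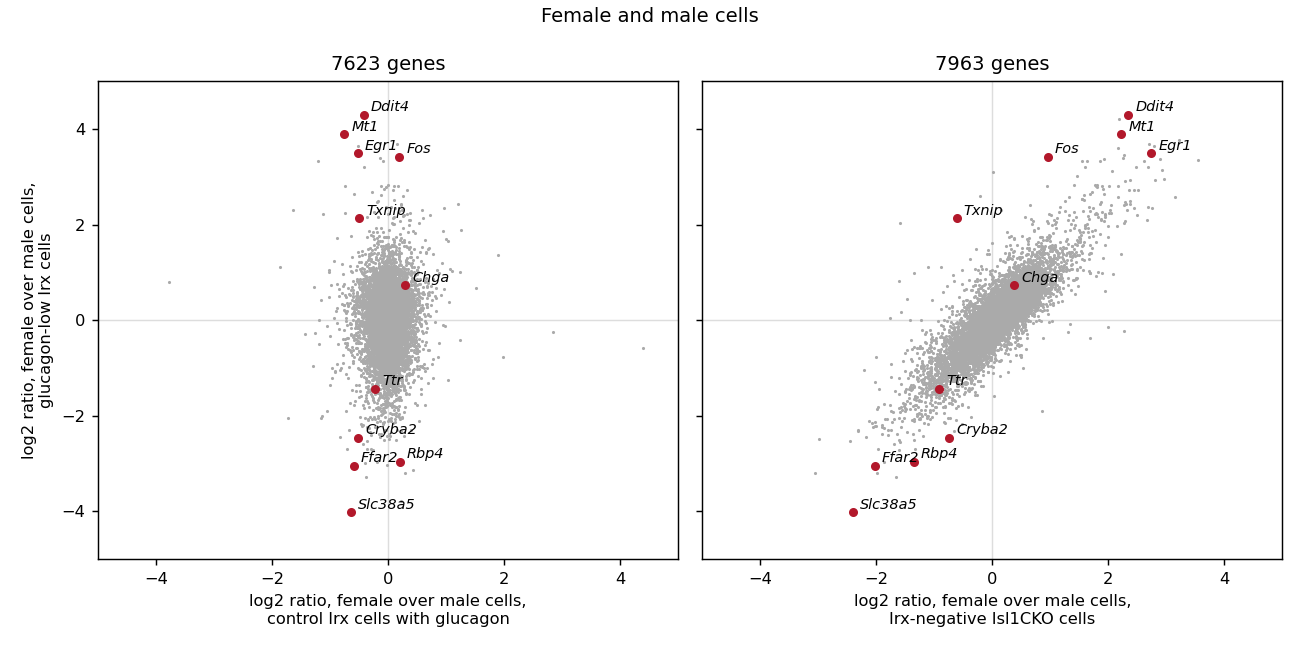
Log2 ratio of female over male cells, 1 point per gene, in glucagon-low Irx cells (y axis) against the same ratio (x axis) in control glucagon cells on the left and in Irx-negative Isl1CKO cells on the right; named genes are in red. Slc38a5 lies at -4.02 on the y axis and at -0.64 and -2.40 on the x axes, and Fos at 3.41 against 0.19 and 0.95.

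With the sexes pooled, glucagon-low Irx cells with more Gcg, a gene of the rule, had more of some other alpha cell transcripts. Cells were divided into 587 with no Gcg UMI, 698 with a UMI but under 0.1%, and 444 at 0.1% or more, and the 105 cells at 1% or more that the rule left out were put beside them. With a scaling common to these sets, Ttr stood at 64272, 91686, 112660 and 122560 CPM. Slc38a5 stood at 1049, 1781, 2039 and 2234 CPM and Gc at 283, 470, 606 and 684 CPM. Higd1a stood at 66.2, 87.8, 105 and 126 CPM, whereas Sstr2, a somatostatin receptor, stayed between 42.1 and 47.9 CPM. Both genes were chosen after their values were seen. Median depth went up alongside, at 7603, 9885, 11142 and 14254 UMIs. The share of male cells moved too, at 16.7%, 23.2%, 28.2% and 22.9%, and the 10 acinar markers summed to 512, 231, 278 and 118 CPM.

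Within each sex the differences between cells at 0.1% or more and cells with no Gcg UMI were unequal. In female cells the log2 ratio was 1.42 for Ttr, 1.51 for Slc38a5 and 1.73 for Gc. In male cells it was 0.06, 0.40 and 0.41, so none of these 3 passed 2-fold there. Higd1a (0.48 in female and 0.72 in male cells) and Sstr2 (0.33 and 0.55) were under 2-fold in both. The levels within each sex were taken after the pooled values were seen.

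Few genes differed with Gcg past 2-fold: 35 of 8211 (0.426%) were higher at 0.1% or more than without a UMI, and 17 (0.207%) lower. Among genes at 50 CPM or more, Rbp4 (log2 ratio 1.20), Vgf (1.17), Gc (1.10) and Sct (1.09) were higher and Iapp lower (-2.31). Within each sex the ratios were 0.78 in female and 0.93 in male cells for Rbp4, 1.18 and 0.98 for Vgf, 2.35 and 0.56 for Sct, and -2.46 and -1.96 for Iapp. Cd74, an antigen presentation gene, had the largest ratio (5.86), which came from 1 cell: it held 267 of the 284 Cd74 UMIs of all glucagon-low Irx cells, and without it the ratio was -0.63. The same cell held 72 of 78 UMIs of C1qb, 15 of 22 of Cd68 and 15 of 22 of Lyz2, which are macrophage markers, and had 2 Irx UMIs. In the 105 cells at 1% or more, 55 of 8233 genes (0.668%) were higher than in glucagon-low Irx cells and 79 (0.96%) lower.

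The number of Irx UMIs, which the rule used, went with some of the same genes. In cells passing the other limits, Slc38a5 stood at 480 CPM in 515 cells with 1 Irx UMI, just outside the rule, at 640 CPM with 2, at 1004 CPM with 3 or 4, and at 2402 CPM with 5 or more. Higd1a stood at 51.6, 58.9, 74.3 and 103 CPM in these sets, and Sstr2 at 38.5, 44.0, 49.6 and 41.9 CPM. The median depth was 6475, 7257.5, 8540 and 12236 UMIs, and the share of male cells 10.5%, 9.35%, 14.4% and 36.3%. Within each sex, with a scaling of its own, Slc38a5 stood at 126, 213, 199 and 342 CPM in female cells and at 1817, 3245, 3868 and 4320 CPM in male cells. Between the last and the first of these sets the log2 ratio of Slc38a5 was 2.32 over all cells, 1.44 in female cells and lower still in male cells. In the 401 Irx cells left out for Nkx6-1, Slc38a5 was at 1130 CPM and Iapp at 2632 CPM, against 462 CPM of Iapp in glucagon-low Irx cells. The pooled levels of this paragraph use the scaling common to the sets by Gcg and by Irx UMIs. In the main scaling Iapp was at 431 CPM in glucagon-low Irx cells. Cells with both Irx genes had 1851 CPM of Slc38a5, those with Irx1 alone 975 CPM and those with Irx2 alone 772 CPM. Their median depths were 9863, 7927 and 7679 UMIs. The sex mix of these sets was not taken, so the levels are a description of cells split by genes of the rule.

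The genes with the highest ratios over control glucagon cells in both sexes were, after Cartpt and Cidea, Prss23 (5.47), Klf15 (5.42), Agt (5.28), Ttyh1 (5.00), Usp2 (4.98) and Sct (4.79). Agt was at 1091 CPM and at 84.2 CPM in Irx-negative Isl1CKO cells, so it was high in glucagon-low Irx cells relative to both. Among the lowest, after the hormones, were Arg1 (-7.40), Fam159b (-7.21), Pappa2 (-6.40), Abcc8 (-6.16), Tmsb15l (-4.71), Edn3 (-4.45), Scgn (-4.30) and Fam101a (-3.92). Pappa2, a protease of IGF-binding proteins, was at 3.28 CPM against 281 CPM. Scgn, the calcium sensor secretagogin, was at 17.9 CPM against 353 CPM, and at 102 CPM in Irx-negative Isl1CKO cells. Of all genes, 220 (2.63%) were higher and 283 (3.39%) lower also within each sex.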

How the data were processed

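Counts were analysed as deposited. The files are 1 matrix of whole-number UMI counts per library, unfiltered, and the authors' tools were STARsolo in STAR 2.7.3a and Seurat 4.3.0.1 with the build GRCm38.p6, per the submitters' processing notes; settings are not given in the sources used here. Cell filter and gates were applied to the raw counts, and UMIs were summed per gene over each set of cells. These sums were scaled by the TMM method of edgeR 4.0.16 (R 4.3.3), and DESeq2 1.42.0 size factors served as an alternative. Log2 ratios used 1 added to each sum. Intervals are exact Poisson, conditional or Clopper-Pearson intervals at 95%. No test was made, since cells are not replicates. Scrublet was run through scanpy 1.11.5.

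The rule for the cells, the gene lists and the comparisons were chosen with earlier results of these data known. Genes named are list members, those with high levels or large or contrasting values first, and, per comparison, the 12 genes at either end of the ratios among those at 50 CPM and 50 UMIs or more, past 2-fold in both sexes. Cd74, and the genes ranked by sex or by Gcg level, were chosen after their values were seen. Alternatives covered scaling, the CPM minimum, cell filter, doublets, the gates, thinning and sex. Some genes that meet these rules are not reported here. The 7 gate genes were left out of counts of calls. Scripts were tested on simulated data.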

Additional observations from a re-analysis of the deposited data

Results flagged for a closer look

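For 4 genes the ratio of glucagon-low Irx cells to control glucagon cells was past 2-fold in opposite directions in female and male cells. The log2 ratio of Fos was 1.46 in female and -1.76 in male cells, that of Ier2 1.29 and -1.46, that of Mt2 3.52 and -1.01, and that of Wfdc15b 2.78 and -4.70. The difference between the sexes was not tested, because each library pools its animals.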

How the results depend on the processing

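No paired analysis was possible because there is 1 library per genotype, and for the same reason no library could be left out in turn. Over 15 alternatives, 3482 of 3720 values of 248 single genes and list medians kept their direction and side of 2-fold, 125 passed it newly, 101 no longer passed and 12 turned. The minimum of 1 CPM and that of 50 CPM do not enter the ratio of a gene. Each left all 248 values the same, so this part of the agreement was fixed beforehand. Relative to TMM, ratios against control moved by 0.41 with unscaled CPM, by -0.33 when the totals left out hormone genes and by -0.02 with DESeq2 size factors. The counts against control, 563 higher and 493 lower (53.3% of calls higher), became 1453 and 235 unscaled (86.1%), and 334 and 1072 without hormone genes (23.8%). Against other Isl1CKO cells, 120 and 342 became 79 and 531 without hormone genes. With a minimum of 1 CPM the counts were 1203 and 1532 against control and 336 and 985 against other Isl1CKO cells, and with 50 CPM 216 and 146, and 40 and 90. With Gcg under 0.1%, 76 genes were higher than in other Isl1CKO cells. Female cells alone gave 989 and 840 against control, and male cells alone 197 higher than other Isl1CKO cells. The causes were not tested, except that the CPM minimum sets how many genes enter. The 24 of 34 enriched genes became 18 of 37 in female cells (48.6%) and 28 of 36 in male cells (77.8%), the lowest and highest shares. Against control cells without another hormone, log2 ratios turned to 1.65 for Cela1, 0.14 for Iapp, 0.19 for Pdx1 and 0.21 for Tspan8, and with gates on thinned cells to 0.54 for Cela1. In male cells they turned to -0.47 for Egr1, -1.76 for Fos, -1.46 for Ier2, -0.40 for Junb, -0.96 for Mt1, -1.01 for Mt2 and -4.70 for Wfdc15b.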
